A study of Mus musculus with 15 samples.

Results

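The comparison set all 12 libraries in which a DEAD-box helicase was depleted against the 3 libraries of the control knockdown, which together are 15 of the 15 libraries of the study. The cells were E14, an established line of mouse embryonic stem cells. Each culture received small interfering RNA (siRNA, a short duplex that directs the degradation of a matching messenger RNA) against Ddx10, Ddx24, Ddx27 or Ddx54, or against EGFP as the control, which gave the groups Ddx10KD, Ddx24KD, Ddx27KD, Ddx54KD and EGFPKD with 3 replicates each. All 5 groups were grown on 0.2% gelatin, took up 400 ng of siRNA with 4 µL of Lipofectamine over 16 h, and were harvested at 48 h. Messenger RNA was captured by its poly(A) tail and sequenced. Changes are fitted log2 changes, given with their SE (n = 12 against 3 for the average), unless a fold is stated. The 4 knockdown group means were given equal weight, and their mean minus the EGFPKD mean is called the average response. The own value of a knockdown is its log2 change against EGFPKD. Every knockdown was read against the same 3 control libraries and 1 control siRNA, so a change common to the knockdowns and a change particular to those control libraries cannot be told apart. In bulk RNA, fewer cells of a type and less RNA per cell cannot be told apart either.

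DEAD-box helicases use ATP to open short RNA duplexes and to remodel RNA-protein complexes. DDX10, DDX24, DDX27 and DDX54 belong to the set found in the nucleolus, where precursors of the small and large ribosomal subunits are assembled on ribosomal RNA. When ribosome assembly is disturbed, free ribosomal proteins can bind MDM2, the ligase that marks the transcription factor p53 for degradation, and p53 then turns on genes of cell cycle arrest and cell death. A second stress pathway runs through the transcription factor ATF4, which raises enzymes of amino acid synthesis, amino acid transporters and aminoacyl-tRNA synthetases when amino acids are short.

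The total of expected counts per library was 26836946 to 27708782, and 14335 of 23845 genes could be tested after genes with low counts had been removed. On the first principal component of log2 CPM (counts scaled to library size), which held 42% of the variance, the control libraries lay at -45.2 to -39.7 and the knockdown libraries at -2.67 to 20.1. The second library of Ddx24KD lay nearest to the controls on this axis and lowest on the second component. Counts of differences among knockdowns that turn on it are given below with and without it. The share of the response in each knockdown is given only with it. Stem cell markers summed to 4148 to 4257 TPM (transcript abundance scaled to length and library size) in the control libraries and to 3746 to 3940 TPM in the knockdown libraries, so the labelled cell type was present throughout. Of 10 fibroblast markers 7 stayed under 1 TPM in every library and Postn was at 0. Of 7 endoderm markers 4 stayed under 1 TPM and Ttr was at 0.

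The depletion of 1 helicase of this set at a time was accompanied by a large average response, in which 5549 genes (38.7% of those tested) passed an adjusted p of 0.05 in edgeR's quasi-likelihood test. Of these, 2813 (19.6%) rose and 2736 (19.1%) fell. The genes that rose included 34 of the 44 tested genes of the p53 lists, and the genes that fell included 45 of the 57 genes of the amino acid stress lists, 29 of 41 genes of S phase and 20 of 25 genes of cholesterol synthesis. Large changes were mostly upward: 570 genes (3.98%) rose and 93 (0.649%) fell by at least 2-fold. The genes that rose by 2-fold or more had a median of 0.52 TPM in the control, and those that fell by as much had a median of 2.02 TPM. With the replicate number as a block the average response held 7316 genes (51%), among them 5548 of the 5549.

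Over the 12 knockdown and 3 control libraries, 3350 genes (23.4% of those tested) showed no overlap in CPM, and 3311 of them were called on average, which is 59.7% of the called genes. Of the total variation of log2 CPM over all 14335 tested genes, 38.6% lay between the knockdowns and the control, 16.6% among the 4 knockdown groups and 44.8% among replicates. In the called genes, which were chosen by the first of these differences, the shares were 64.8%, 11.4% and 23.8%. The 3 parts rest on 1, 3 and 10 degrees of freedom (independent differences) in that order. Spread among replicates also adds to the shares between and among groups, and was not taken off. A test of whether the 4 knockdown groups had equal means, which used no control library for its contrast, called 71 genes (0.495%) in edgeR. Of those 71, 45 were called on average, and 2 of the 663 genes with an average change of 2-fold or more were among them. With the replicate block the same test called 1603 genes (11.2%), of which 95 belonged to the 663. The count of 71 also turned on single libraries: it was 145 without the second library of Ddx24KD, 22 and 26 without the second or the third of Ddx10KD, and 44 and 40 without the second or the third of Ddx54KD.

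**Figure D1:**
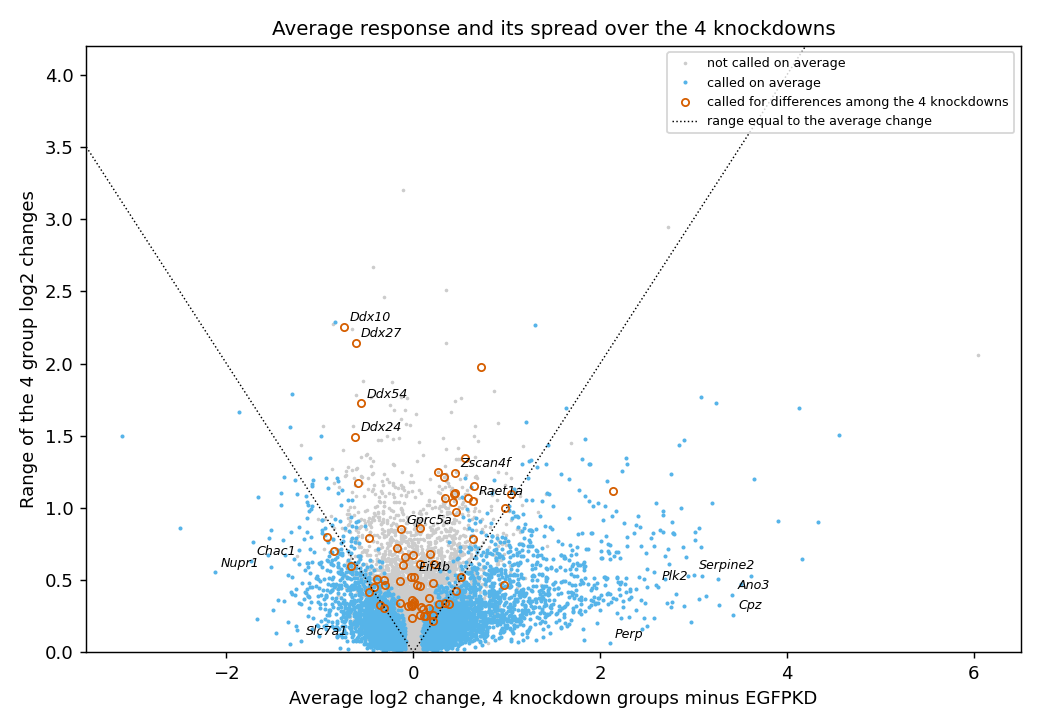
Each point is a tested gene, with the average log2 change of the 4 knockdown groups against EGFPKD on the x axis and the range of the 4 group log2 changes on the y axis. Blue points are called on average, orange circles mark the 71 genes called for differences among the knockdowns, and the dotted lines mark a range equal to the average change. Genes with a large average change lie well under the dotted lines, and the targets Ddx10, Ddx24, Ddx27 and Ddx54 lie above them.

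Promoter sequences are shown first for 4 genes of the p53 and amino acid stress lists, because the average response moved those lists in opposite directions. RefSeq promoters of GRCm38.p6, 300 bases that end 50 bases after the start, matched 10734 of the 14335 tested genes. Both strands were searched for the C/EBP-ATF element TGATGNAA, the kind of sequence that ATF4 binds together with a C/EBP partner. It was found in 16 of 43 matched promoters of the amino acid stress lists (37.2%) and in 299 of all 10734 (2.79%). Of the 16 genes 13 fell on average: Aars, Asns, Chac1, Gars, Iars, Nupr1, Pck2, Pycr1, Slc1a4, Slc7a11, Tars, Trib3 and Yars. The other 3, Atf3, Got1 and Vldlr, had average log2 changes of 0.29, -0.09 and -0.68 and did not pass (edgeR adjusted p of 0.628, 0.193 and 0.107). Nupr1, on the minus strand at chr7:126625471-126625720, and Chac1, on the plus strand at chr2:119350992-119351241, had the largest average decreases of the promoters that hold it. Their 250 bases before the start are given 5′ to 3′ in the direction of the gene, and capitals mark the match, which lies on the opposite strand and starts 110 bases before the start in Nupr1 and 193 bases before it in Chac1.
Nupr1: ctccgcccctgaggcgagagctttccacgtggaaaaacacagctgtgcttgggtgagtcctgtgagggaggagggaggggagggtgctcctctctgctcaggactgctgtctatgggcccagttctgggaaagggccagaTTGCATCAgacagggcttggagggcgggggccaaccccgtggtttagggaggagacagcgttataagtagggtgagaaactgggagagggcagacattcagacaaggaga
Chac1: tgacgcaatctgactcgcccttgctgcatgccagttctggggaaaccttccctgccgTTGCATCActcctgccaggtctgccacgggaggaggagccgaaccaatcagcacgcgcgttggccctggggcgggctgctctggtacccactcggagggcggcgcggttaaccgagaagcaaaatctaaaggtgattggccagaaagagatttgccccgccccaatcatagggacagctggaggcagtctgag

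The full p53 site, a pair of adjacent decamers, was in none of the 34 matched promoters of the p53 lists and in 1 of all 10734. A single p53 decamer, searched after the full site had been found in none, was in 16 of the 34 (47.1%) and in 880 of all promoters (8.2%). It was also in 10% of the promoters of genes that rose and in 6.54% of those of genes that fell. Of the lists that mostly fell, it was in 4 of 17 promoters of the cholesterol list (23.5%), 9.09% of S phase and 4.65% of amino acid stress. Ddit4l, on the plus strand at chr3:137623422-137623671, and Mdm2, on the minus strand at chr10:117710759-117711008, had the largest average increases of the p53 promoters that hold the decamer before the start. Capitals mark it, 90 bases before the start in Ddit4l and 186 bases before it in Mdm2.
Ddit4l: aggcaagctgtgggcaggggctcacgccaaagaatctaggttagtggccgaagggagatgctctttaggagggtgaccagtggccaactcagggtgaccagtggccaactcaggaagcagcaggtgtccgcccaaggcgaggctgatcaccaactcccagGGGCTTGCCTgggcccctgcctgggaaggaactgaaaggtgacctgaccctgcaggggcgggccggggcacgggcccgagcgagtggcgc
Mdm2: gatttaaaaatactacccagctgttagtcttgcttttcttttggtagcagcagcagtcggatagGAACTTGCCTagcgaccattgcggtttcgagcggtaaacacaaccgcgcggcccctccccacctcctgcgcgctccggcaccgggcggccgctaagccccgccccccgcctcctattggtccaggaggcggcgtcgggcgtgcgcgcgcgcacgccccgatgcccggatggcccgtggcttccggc
The E2F letters TTTGGCGC or TTTCGCGC were in 9 of 33 matched promoters of S phase genes (27.3%), against 1.77% of all. The sterol element TCACNCCAC was in 1 of 17 promoters of the cholesterol list (5.88%), against 1.49% of all. Matches of the C/EBP-ATF element overlapped a p53 decamer in 3 promoters and a sterol element in 1, and no other pair of these motifs overlapped. A match describes letters in a window and was not tested for binding.

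The targeted genes show how an average over 4 groups can be carried by 1. Ddx10 stood at 144, 142 and 151 CPM in EGFPKD and at 33.3, 26.7 and 21.0 CPM in Ddx10KD. Ddx24 stood at 184, 175 and 172 CPM in EGFPKD and at 58.0, 60.8 and 44.6 CPM in Ddx24KD. Ddx27 fell from 205, 202 and 200 CPM to 47.2, 46.4 and 44.0 CPM in its own knockdown. Each target was lowest in the group labelled with it, without overlap with any other group. Ddx54 followed the same pattern, with 202, 204 and 205 CPM in EGFPKD and 64.3, 60.2 and 46.2 CPM in Ddx54KD.

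Averaged over all 4 groups the targets changed by -0.74 ± 0.08 (Ddx10), -0.62 ± 0.06 (Ddx24), -0.62 ± 0.04 (Ddx27) and -0.56 ± 0.06 (Ddx54) on the log2 scale (fitted value ± SE, n = 12 against 3). With the targeting group left out, Ddx10 still fell by 0.18 log2 units over the other 3 knockdowns, Ddx24 by 0.26 and Ddx54 by 0.13, with edgeR adjusted p of 0.00517, 9.22e-05 and 0.0131. The value of Ddx27 over the other 3 groups was -0.11, which did not pass (adjusted p = 0.0734 in edgeR). Of the 30 other tested DEAD-box genes 3 rose and 6 fell, with a median of -0.05, against 19.6% and 19.1% of all tested genes. Without the third control library 3 of the 30 fell. Ddx17, which acts in splicing and microRNA processing, rose by 0.35 ± 0.05 log2 units, and Eif4a3, a core of the exon junction complex, fell by 0.25 ± 0.03.

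Cpz and Ano3 had the largest average increases of the named genes. Cpz, a secreted carboxypeptidase that binds Wnt proteins, stood at 0.512, 0.896 and 1.40 CPM in EGFPKD, and at a lowest, median and highest of 5.82, 10.4 and 13.3 CPM in the 12 knockdown libraries, a 10.7-fold average increase (log2 3.42 ± 0.33). Ano3, a member of the anoctamin membrane proteins, stood at 1.39, 2.54 and 2.06 CPM and at 14.1, 21.5 and 27.3 CPM, also 10.7-fold. Serpine2, a secreted inhibitor of serine proteases, stood at 6.62, 7.62 and 6.99 CPM and at 40.4, 61.1 and 69.8 CPM, 8.02-fold. All 12 knockdown libraries lay above all 3 control libraries for each of these genes, by the way they were chosen. None of them passed the test of differences among knockdowns, with edgeR adjusted p of 0.930, 0.572 and 0.158, although Serpine2 did with the block (0.0157). Its own values were 3.17 log2 units (Ddx10KD), 3.03 (Ddx24KD), 3.18 (Ddx27KD) and 2.64 (Ddx54KD). The same choice by size named Ms4a10, Ptprv, Wnt8a, Rtkn, Wnt5a, Ltb4r2, Plk2, Neurod1 and Cd109, with average log2 changes of 2.56 to 3.14.

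Of the p53 feedback list, 6 of 7 genes rose and none fell, with a median of 0.48. Over all tested genes 19.6% rose and 19.1% fell. Mdm2 stood at 105.3, 116 and 116 CPM in the control and at 262, 386 and 470 CPM (lowest, median, highest) in the knockdowns, a 3.34-fold increase. Ccng1, which encodes cyclin G1, a p53-induced partner of a protein phosphatase, rose 2.61-fold, and Trp53inp1, which enhances p53 activity, rose 3.74-fold. The lowest Mdm2 value belonged to the second library of Ddx24KD and was still above every control.

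Of the arrest list, 11 of 15 genes rose and none fell, against 19.6% and 19.1% of all tested genes. The median was 0.75. Plk2, a kinase that p53 induces, stood at 18.2, 23.4 and 23.2 CPM and at 95.6, 130 and 169 CPM, a 6.05-fold increase. Btg2, an antiproliferative regulator of messenger RNA decay, rose 3.88-fold, and Phlda3, an inhibitor of AKT at the membrane, rose 3.27-fold. The knockdowns did not overlap the controls for these genes. Ddit4l, an inhibitor of the growth kinase mTORC1, rose 5.40-fold.

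Of the apoptosis list, 13 of 13 tested genes rose, against 19.6% of all tested genes. The median was 1.11, against 0.00 over all tested genes. Perp, a membrane protein of desmosomes and cell death, stood at 13.0, 17.6 and 17.2 CPM and at 54.5, 67.8 and 86.5 CPM, 4.29-fold. Its increase was the most even of all named genes with a change of 2-fold or more, with own values of 2.10, 2.10, 2.14 and 2.08 in Ddx10KD, Ddx24KD, Ddx27KD and Ddx54KD. Bbc3 (PUMA) and Pmaip1 (NOXA), which antagonise survival proteins of the BCL2 family, rose 2.12-fold and 2.92-fold, and Apaf1, the core of the apoptosome, rose 2.46-fold. No library of the knockdowns reached down to a control value for any of the 13. The same held for 1748 of all 14335 tested genes.

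Of the p53 list of repair and metabolism, 4 of 9 tested genes rose, against 19.6% of all tested genes, with a median of 0.28. Tap1, a peptide transporter of antigen presentation, rose 4.82-fold, Dcxr, a xylulose reductase, 3.90-fold, and Rps27l, a ribosomal protein paralog induced by p53, 1.35-fold. None of the 44 genes of the 4 p53 lists differed among the knockdowns in the test without a block, and 14 did with it. Of all tested genes 0.495% differed without the block and 11.2% with it. The medians of the 44 were 0.72 log2 units in Ddx10KD, 0.64 in Ddx24KD, 0.83 in Ddx27KD and 0.69 in Ddx54KD.

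**Figure D2:**
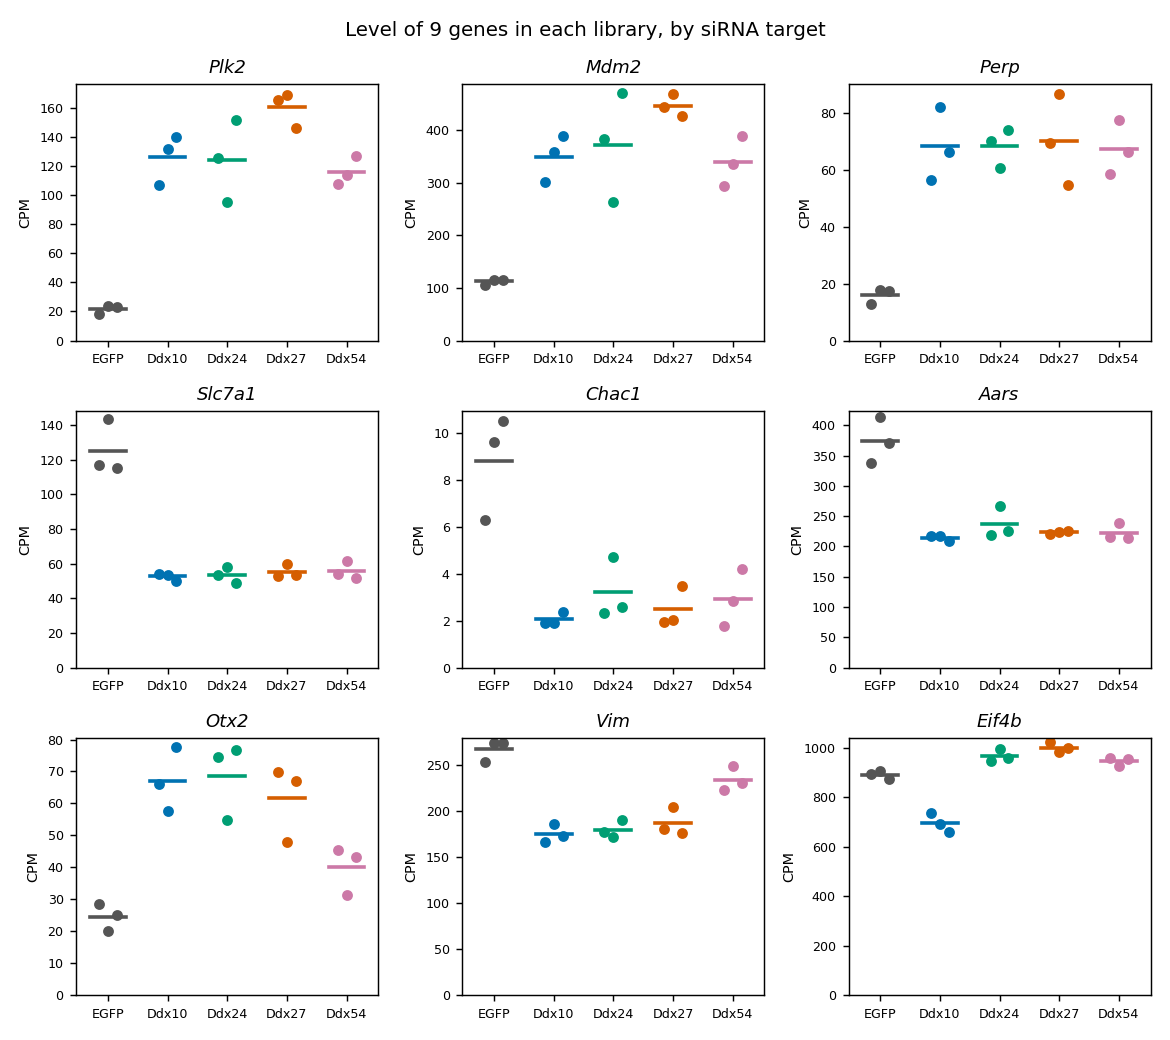
Each panel gives the level of 1 gene in CPM, from 0, with 1 point per library and a line at the mean of the 3 libraries of each siRNA target. The p53-linked genes Plk2, Mdm2 and Perp are higher and Slc7a1, Chac1 and Aars lower in all 12 knockdown libraries, whereas Otx2 and Vim are nearest to the control in Ddx54KD and Eif4b is low in Ddx10KD alone.

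The amino acid stress lists moved the other way. Of 15 genes of amino acid and folate synthesis 13 fell and none rose, with a median of -0.61. Of 10 amino acid transporters 9 fell, and of 20 aminoacyl-tRNA synthetases 18 fell and none rose, with medians of -0.39 and -0.29. Of the 12 regulators and stress targets tied to ATF4, 5 fell and 2 rose. Across the 57 genes the medians were -0.39 log2 units, -0.35, -0.40 and -0.37 in Ddx10KD, Ddx24KD, Ddx27KD and Ddx54KD. None of the 57 differed among knockdowns, and 7 did with the replicate block, against 0.495% and 11.2% of all tested genes.

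Slc7a1, the transporter of cationic amino acids, stood at 117, 143 and 115 CPM in EGFPKD and at 49.0, 53.7 and 61.4 CPM (lowest, median, highest) in the knockdowns, a fall of 1.20 ± 0.07 on the log2 scale. Its own values lay between -1.25 and -1.17 in the 4 groups, among the narrowest ranges of all genes changed by at least 2-fold. Nupr1, a small stress-induced chromatin protein, stood at 3.33, 7.06 and 4.45 CPM and at 0.597, 0.993 and 1.86 CPM, and Chac1, which degrades glutathione, at 6.29, 9.64 and 10.5 CPM and at 1.79, 2.35 and 4.70 CPM. The groups did not overlap for these 3 genes, and Nupr1 and Chac1 had the largest decreases of the named genes (-2.12 ± 0.24 and -1.74 ± 0.21). Mthfd2, an enzyme of mitochondrial folate metabolism, fell by 0.87 ± 0.05 log2 units, and Phgdh, Psat1 and Gpt2, which make serine and alanine, fell by 1.02, 0.85 and 1.08. Aars, Nars, Yars and Mars, which charge tRNAs with alanine, asparagine, tyrosine and methionine, fell by 0.74, 0.72, 0.73 and 0.47. Pck2, the mitochondrial phosphoenolpyruvate carboxykinase, fell by 1.19 ± 0.10 log2 units.

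Atf4 itself fell by 0.32 log2 units (edgeR adjusted p = 0.000331), and Ddit3 (CHOP), at -0.02, did not pass. The 2 members of the regulator list that rose were Ddit4 and Ppp1r15a (GADD34), which restores translation after stress and stood at 0.34 log2 units. Ddit4, an inhibitor of mTORC1 that also responds to p53 and hypoxia, stood at 21.6, 27.9 and 18.8 CPM and at 49.6, 72.2 and 98.6 CPM, 3.09-fold higher. The transporter that rose was Slc38a2, a carrier of neutral amino acids, at 0.53 log2 units (edgeR adjusted p = 0.00255). Atf4, Ddit3, Ppp1r15a and Slc38a2 were named after their values were seen. The deposited values give transcript levels, and translation of the ATF4 protein was not measured.

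Of 121 tested factors of ribosome assembly, covering both subunits and snoRNP maturation, 52 fell, 9 rose and 60 did not pass, with a median of -0.10. Of the 48 small subunit factors among them 18 fell, or 11 without the first control library, and of the 52 large subunit factors 22 fell. Noc4l, a factor of the small subunit, fell by 0.33 ± 0.04 log2 units with own values of -0.33, -0.33, -0.32 and -0.33. Lyar, a nucleolar protein, and Senp3, a SUMO protease of the large subunit pathway, fell by 0.39 ± 0.05 and 0.31 ± 0.04. Nop10, a core protein of H/ACA snoRNPs, fell by 0.45 ± 0.04 log2 units. Utp20 went the other way, from 401, 388 and 391 CPM to 478, 505 and 538 CPM (lowest, median, highest), an increase of 0.36 ± 0.04. Of 18 genes of RNA polymerase I and its factors 5 fell, among them Tcof1 (treacle), and 1 rose, the initiation factor Rrn3. Over all tested genes 19.1% fell and 19.6% rose.

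Ribosomal protein genes had a median range of the 4 group changes of 0.125 log2 units, against 0.175 over all tested genes. Of 80 tested, 12 rose and 3 fell on average, against 19.6% and 19.1% of all tested genes. With the replicate block 37 rose and 3 fell. Their median was -0.01 in Ddx10KD, 0.12 in Ddx24KD, 0.08 in Ddx27KD and 0.09 in Ddx54KD. None of the 80 differed among knockdowns without the block, and 36 did with it, against 11.2% of all genes. Rpl22l1, a paralog of Rpl22 with its own regulatory roles, stood apart with a fall of 1.30 ± 0.08, from 59.6, 53.3 and 52.5 CPM to 16.4, 21.5 and 29.9 CPM. The count of 12 was 3 without the first control library and 4 without the third. Reads of ribosomal protein genes can be shared with processed pseudogenes, so how they were split is uncertain.

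Of 41 tested genes of S phase 29 fell, none rose and 12 did not pass. The changes ran from -0.61 to 0.05 log2 units with a median of -0.20. In 26 of the 41 all 12 knockdown libraries lay below all 3 controls, against 1602 of all 14335 tested genes. Tk1, the thymidine kinase of S phase, stood at 76.8, 75.5 and 81.5 CPM and at 48.0, 51.2 and 54.8 CPM, a fall of 0.61 ± 0.04. Pcna, the sliding clamp of replication, fell by 0.48 ± 0.05 log2 units, Uhrf1, which guides maintenance of DNA methylation, by 0.50 ± 0.04, and Mcm10, a factor of origin firing, by 0.37 ± 0.04. The group medians were -0.24 log2 units (Ddx10KD), -0.19 (Ddx24KD), -0.21 (Ddx27KD) and -0.21 (Ddx54KD). Of 26 genes of G2 and mitosis 7 rose and 3 fell, against 19.6% and 19.1% of all tested genes. Their median was 0.03, and 3 rose without the third control library. Cenpe, a kinetochore motor, rose by 0.23 ± 0.04 log2 units, while Plk1 and Cdk1, kinases of mitotic entry, fell by 0.20 and 0.24.

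Of 25 genes of cholesterol synthesis and uptake 20 fell and none rose, with a median of -0.26. Ebp, a sterol isomerase, stood at 35.2, 32.8 and 32.2 CPM and at 20.4, 23.1 and 26.1 CPM. Srebf2, the transcription factor of the pathway, fell by 0.24 ± 0.04 log2 units, and Fdps, which makes farnesyl diphosphate, by 0.40 ± 0.07. None of the 25 differed among knockdowns, and 1 did with the replicate block, against 0.495% and 11.2% of all tested genes. Of 27 chaperone genes 9 fell and 2 rose, against 19.1% and 19.6% of all tested genes. Herpud1, a gene of endoplasmic reticulum stress, was lowest at -0.88 ± 0.09 log2 units. Of 17 tested interferon genes 8 fell, or 5 without the third control library, and 1 rose. Those that fell included the RNA sensor Ddx58 (RIG-I) at -0.68 ± 0.08 log2 units and Oas1a at -0.74 ± 0.07. Of 26 genes of glycolysis and hypoxia 8 fell and 2 rose, where 19.1% of all tested genes fell and 19.6% rose. The glucose transporter Slc2a1 rose by 0.36 ± 0.04 log2 units, and the glycolytic enzyme Tpi1 fell by 0.43 ± 0.08.

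**Figure D3:**
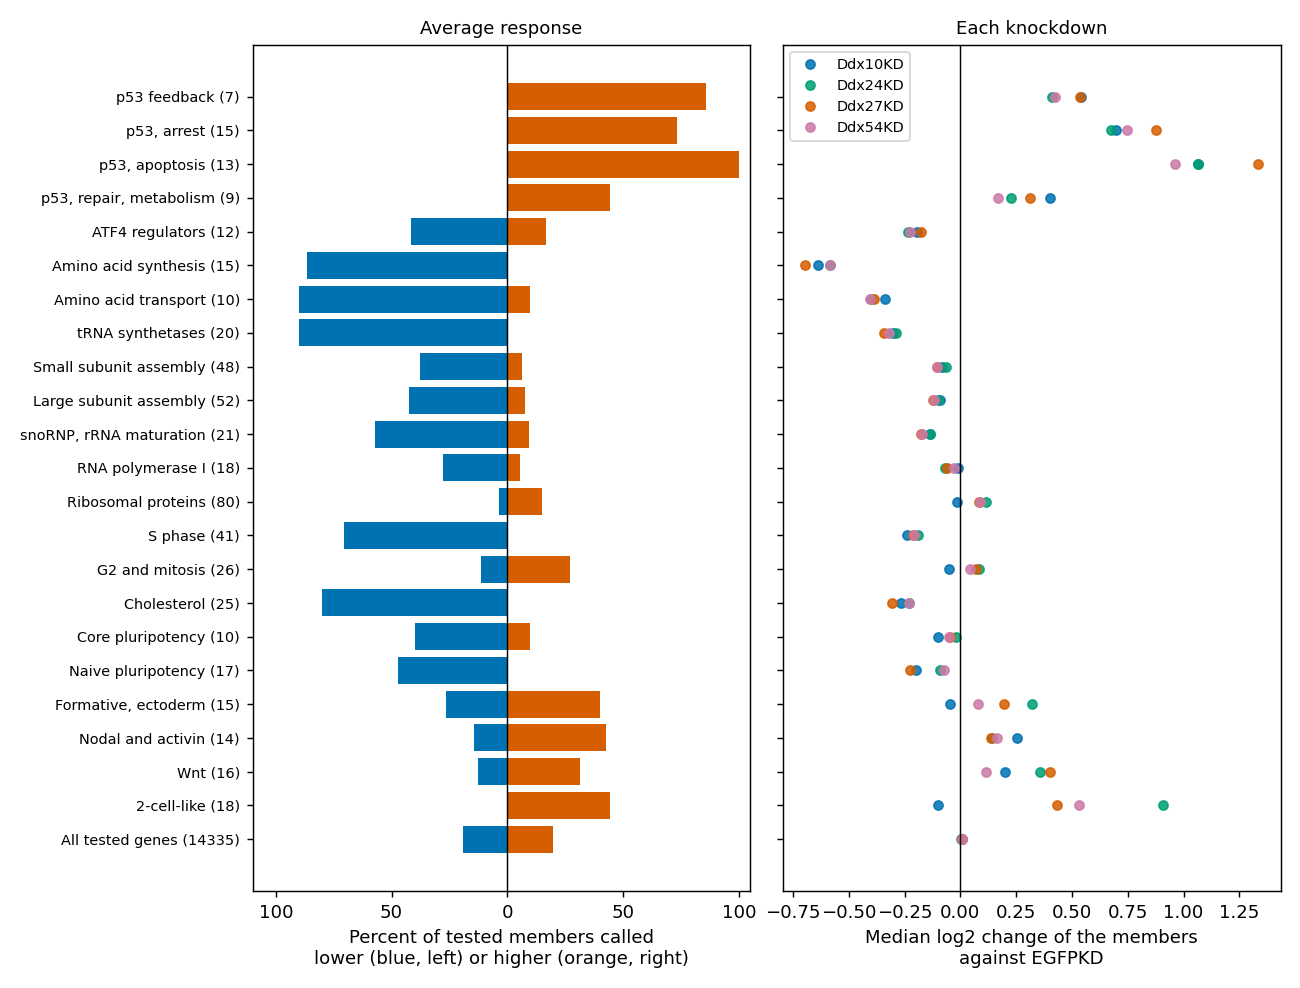
Left, bars to the right give the percent of tested members of each gene list called higher on average and bars to the left the percent called lower, with the number tested in brackets and all tested genes at the bottom. Right, points give the median log2 change of the list in each knockdown against EGFPKD. The 4 points lie close together for the amino acid, S phase and cholesterol lists, and farthest apart for the 2-cell-like list, where Ddx10KD is at -0.10 and Ddx24KD at 0.91.

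Of the 10 genes of core pluripotency 4 fell and 1 rose, with a median of -0.05, against 19.1% and 19.6% of all tested genes. Pou5f1 (OCT4), the central factor of the stem cell state, changed by -0.14 ± 0.04 log2 units (edgeR adjusted p = 0.0120). Nanog stood at 634, 646 and 632 CPM in the control and at 422, 488 and 591 CPM (lowest, median, highest) in the knockdowns, a fall of 0.35 ± 0.06, and Zfp42, a marker of the naive state, fell by 0.34 ± 0.04 log2 units. Sox2 rose by 0.22 ± 0.04 log2 units, and Esrrb, at -0.09 ± 0.06, did not pass (adjusted p of 0.234 in edgeR, and 0.0117 with the replicate block). The call of Pou5f1 was lost without the second or the third control library (adjusted p of 0.0655 and 0.0531 in edgeR). Of the naive list 8 of 17 fell and none rose, Tcl1 (-0.56 ± 0.06) and Nr0b1 (-0.47 ± 0.06) among them.

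Genes of early differentiation moved in both directions. Of 15 tested genes of the formative state and ectoderm 6 rose and 4 fell, against 19.6% and 19.1% of all tested genes. Otx2, which marks the exit from the naive state, stood at 28.4, 20.1 and 25.1 CPM in EGFPKD, 66.2, 57.5 and 77.6 CPM in Ddx10KD, 74.5, 55 and 76.6 CPM in Ddx24KD, 69.9, 48.0 and 67.1 CPM in Ddx27KD, and 45.5, 31.3 and 43.4 CPM in Ddx54KD. All 12 knockdown libraries were above the controls, and the Ddx54KD libraries were below all the other knockdown libraries. The test of differences among knockdowns gave an edgeR adjusted p of 0.107 for Otx2, and 8.75e-07 with the replicate block. Pou3f1 (OCT6), a factor of the epiblast, had own values of 1.53, 1.51, 1.33 and 0.47 in Ddx10KD, Ddx24KD, Ddx27KD and Ddx54KD (adjusted p of 0.0992, and 4.77e-07 with the block). Of the 15 genes none differed among knockdowns without the block and 8 did with it, against 11.2% of all genes. The list medians were -0.05, 0.32, 0.20 and 0.08 in the same order.

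Signalling ligands and their inhibitors were split as well. For comparison, 19.6% of all tested genes rose and 19.1% fell. Of 14 tested genes of Nodal and activin signalling 6 rose and 2 fell: Nodal, the ligand itself, rose by 0.87 ± 0.10 log2 units, from 73.4, 64.0 and 66.7 CPM to 98.7, 124 and 160 CPM (lowest, median, highest), while Inhbb, an activin subunit, fell by 1.25 ± 0.13 and Gdf1, a co-ligand of Nodal, by 1.12 ± 0.12. Of 16 Wnt genes 5 rose and 2 fell. Wnt5a stood at 1.21, 0.896 and 1.51 CPM in the control, at 4.48 to 6.02 CPM in Ddx54KD and at 6.42 to 12.3 CPM in the other 9 knockdown libraries. It was lower in Ddx54KD than in the mean of the others by a log2 change of -0.89 ± 0.16 (edgeR adjusted p = 0.0361). Wnt6 rose 3.57-fold, and Notum, an enzyme that inactivates Wnt ligands, fell by 0.62 ± 0.08. Of 16 genes of FGF signalling 6 rose, or 3 without the first control library, and 4 fell, with Fgf17 at -1.44 ± 0.13 log2 units, Myc at -0.44 ± 0.05 and the receptor Fgfr2 at 0.57 ± 0.09.

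Of 11 tested genes of primitive streak and mesoderm 2 rose and 1 fell (none fell once any single control library was left out). Of 13 of endoderm 4 rose and 2 fell, and of 10 of trophoblast 2 rose and 1 fell. Over all tested genes 19.6% rose and 19.1% fell. The 4 endoderm genes that rose were 1 or 2 without the first or the second control library, and 1 of the 2 trophoblast genes was lost without the first or the third. Of 8 tested genes of the fibroblast list 2 rose and 2 fell, and 1 rose without any single control library. Fbn1 (fibrillin) rose by 0.51 ± 0.10 log2 units and Vim fell by 0.47 ± 0.05. Kdr, a receptor of blood and vessel precursors, rose 3.08-fold and Hnf4a, an endoderm factor, 3.06-fold, from controls of 0.585, 0.672 and 0.699 CPM for the latter. Tfap2c, shared by trophoblast and stem cells, rose by 0.60 ± 0.15 log2 units. Summed endoderm markers were at 2.42 to 3.72 TPM in the control and 2.98 to 7.61 TPM in the knockdowns, trophoblast markers at 10.2 to 15.3 and 9.72 to 16.7 TPM, neural markers at 9.78 to 11.4 and 8.25 to 10.5 TPM, and fibroblast markers at 18.95 to 26.96 and 12.01 to 18.1 TPM. Thy1, the only called gene of the 10 fibroblast markers, fell by 0.67 ± 0.11 log2 units, and the part of other cell types in the average response was not tested. Of the 22 R-loop factors 4 rose and 3 fell, shares no higher than those of all tested genes (19.6% and 19.1%), with the topoisomerase Top3b at 0.62 ± 0.07 log2 units, the helicase Aqr at 0.26 ± 0.04 and Brca1 at -0.28 ± 0.05.

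How much of each change came from each knockdown was expressed as its share of the summed log2 change of the 4 groups, so that an even response gives 25% each. Over the 663 genes with an average change of 2-fold or more the median share was 24.8% for Ddx10KD, 24.6% for Ddx24KD, 27.5% for Ddx27KD and 23.2% for Ddx54KD. All 4 shares lay between 20% and 30% for 389 of the 663 genes (58.7%). Ddx27KD had the largest change of the 4 groups in 374 genes (56.4%), and Ddx54KD the smallest in 310 (46.8%). The range of the 4 group changes had a median of 31.5% of the average change, and exceeded the average in 16 genes (2.41%). For all 5549 called genes it had a median of 47.6%, and exceeded the average in 549 genes (9.89%). Against EGFPKD alone, 4438 genes (31%) were called in Ddx10KD, 4026 (28.1%) in Ddx24KD, 4788 (33.4%) in Ddx27KD and 3483 (24.3%) in Ddx54KD, all with the same controls. These shares use the same control libraries for every group and are a description without a test. They were not computed again without the second library of Ddx24KD.

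Increases and decreases were shared out differently. For the 570 genes that rose by 2-fold or more, all 4 shares lay between 20% and 30% in 359 (63.0%), and Ddx27KD had the largest change in 344 (60.4%). For the 93 genes that fell as much, all 4 shares lay in that interval in 30 (32.3%). There Ddx10KD had the largest change in 44 genes (47.3%), with a median share of 27.3%, and Ddx54KD the smallest in 53 (57.0%), with a median share of 21.5%. By library, the median change of the 570 genes from the control mean was 1.23, 1.44 and 1.51 in Ddx10KD, 1.40, 1.09 and 1.59 in Ddx24KD, 1.52, 1.61 and 1.49 in Ddx27KD, and 1.12, 1.33 and 1.47 in Ddx54KD. The 4 groups overlapped in these values, and the lowest of the 12 was the second library of Ddx24KD.

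**Figure D4:**
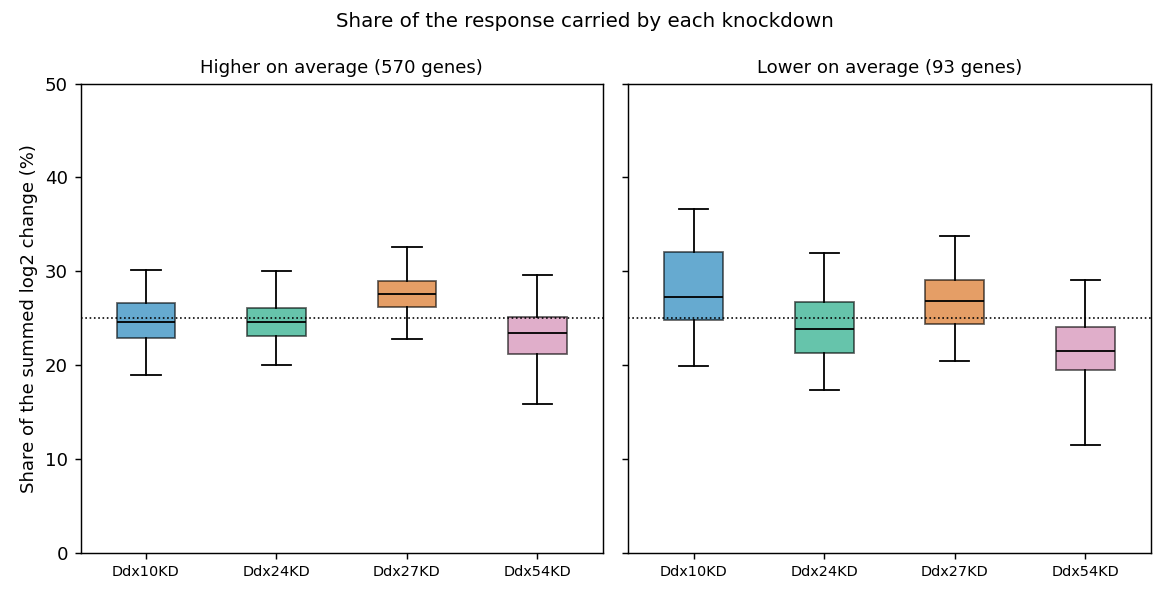
Boxes give the share, in percent, that each knockdown holds of the summed log2 change of the 4 groups, for the 570 genes higher (left) and the 93 genes lower (right) by at least 2-fold on average. Boxes span the quartiles with a line at the median, whiskers run from the 5th to the 95th percentile, and the dotted line marks 25%. The Ddx27KD box lies highest on the left, at a median of 27.6%, and the Ddx54KD box lowest on both sides.

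Genes with the most even changes came from several functions. Beside Perp and Slc7a1, the narrowest ranges belonged to Cyr61, a matricellular protein, Nrk, a kinase, Pros1, the anticoagulant protein S, Got1l1, Cpped1, a phosphatase, and Plxdc2, a membrane receptor. Pros1 stood at 18.1, 23.3 and 18.9 CPM in the control and at 36.2, 41.8 and 46.3 CPM (lowest, median, highest) in the knockdowns, with own values of 0.99, 1.07, 1.08 and 1.05. Cyr61 had own values of 1.07, 1.14, 1.15 and 1.14 but overlapped between knockdowns and control. Its libraries followed the replicate number, with 7.67, 17.7 and 12.1 CPM in the control and 15.1, 40.1 and 23.8 CPM in Ddx10KD. Its call was lost without the first or the third control library (edgeR adjusted p of 0.105 and 0.0621).

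Each knockdown was then compared with the mean of the other 3, a contrast that holds no control library. Ddx10KD departed most, with 224 genes (1.56%), 109 (0.76%) higher and 115 (0.802%) lower. Ddx54KD departed in 25 genes (0.174%), Ddx24KD in 10 (0.0698%) and Ddx27KD in 5 (0.0349%). With the replicate block the counts were 1488 (10.4%), 755 (5.27%), 59 (0.412%) and 64 (0.446%) in that order. The 4 targets are in every one of these counts, since the targeted group lowers the mean of the others. Apart from the targets, Ddx27KD therefore departed in 1 gene, Eif4b, and Ddx24KD in 6, Raver1-fdx1l and the predicted genes Gm2016, Gm2022, Gm20767, Gm4340 and Gm4858, named here after their values were seen. The count of Ddx10KD was 98, 35 or 50 without the first, the second or the third of its own libraries, and that of Ddx54KD was 11, 6 or 7. Without the second library of Ddx24KD the count of Ddx54KD was 129, without the third of Ddx10KD it was 16, and that of Ddx24KD was 6 without the second or the third library of either Ddx10KD or Ddx24KD.

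Departures of Ddx54KD went mostly toward the control, and those of Ddx10KD went both ways. Of the 25 genes of Ddx54KD 22 were called on average, and it was nearer to the control than the other knockdowns in 20 of them and further from it in 2. With the block these counts were 544, 461 and 83. Of the 224 genes of Ddx10KD 121 were called on average, with Ddx10KD further from the control in 61 and nearer to it in 60, and with the block 912, 470 and 442. Without the block Ddx27KD had 4 genes called on average, all of them targets, 1 further from the control and 3 nearer to it. Ddx24KD had 9, the targets among them, 5 further and 4 nearer. In each of the 4 knockdowns these unblocked counts hold the 4 targets. The group's own target counts as further and the other targets as nearer, which the targeting itself fixes. For Ddx27KD the blocked fit gave 56 genes called on average, 49 further from the control and 7 nearer to it. For Ddx24KD it gave 44, 32 further and 12 nearer.

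Of the 10 genes with the smallest p for differences among knockdowns, leaving aside the 4 targets, predicted gene models and genes under 5 TPM in every group, 7 stood apart in Ddx10KD and moved by at most 0.17 on average. The predicted models Gm2016 and Gm2022 had p values among these, and were lower in Ddx10KD by -0.78 ± 0.08 and -0.94 ± 0.10 with average changes of 0.58 and 0.65. Eif4b, a cofactor of the helicase that opens messenger RNAs for translation, stood at 897, 908 and 873 CPM in the control, 739, 692 and 661 CPM in Ddx10KD, and 928 CPM or more in all 9 other knockdown libraries. Ddx10KD alone lay below the control, and the average change was 0.00 ± 0.04 while Ddx10KD differed from the other knockdowns by -0.48 ± 0.04 log2 units (edgeR adjusted p = 3.38e-06). Rnf10, a ubiquitin ligase that acts on the small ribosomal subunit, stood at 403, 423 and 426 CPM in the control and 298, 270 and 304 CPM in Ddx10KD, a difference of -0.55 ± 0.05 from the other knockdowns. Cox7a2l, which joins respiratory complexes, and Map1a, a microtubule protein, were lower in Ddx10KD by -0.65 ± 0.06 log2 units and -0.41 ± 0.04. Sdf4, a calcium-binding protein of the Golgi, Foxk2, a forkhead factor, and Akr1a1, an aldehyde reductase, were higher there by 0.37, 0.52 and 0.32. In none of these 7 genes did the Ddx10KD libraries overlap those of another knockdown.

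Translation factors also appeared among the 71, chosen here after their values were seen. Eef1a1 and Eef2, the elongation factors that bring tRNAs to the ribosome and translocate it, changed by 0.06 and 0.04 in Ddx10KD, by 0.27 and 0.30 in Ddx24KD, by 0.27 and 0.30 in Ddx27KD and by 0.24 and 0.22 in Ddx54KD. Eef1b2 changed by -0.24 log2 units in Ddx10KD and by 0.08 to 0.11 in the other groups, and Eif3f, a subunit of an initiation factor, by -0.24 and by 0.03 to 0.10. The long noncoding RNA Neat1, the scaffold of paraspeckles, changed by 0.27 in Ddx10KD and by 1.20, 1.20 and 1.27 in the others.

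The 2-cell-like genes were the least even list. Of 18 tested genes 8 rose on average and none fell, against 19.6% and 19.1% of all tested genes. With the replicate block 12 rose, against 3707 of all 14335. In the fit without the block 6 of the 18 differed among knockdowns, against 0.495% of all genes. Zscan4f, a gene of the 2-cell embryo and of rare cells in stem cell cultures, stood at 17.3, 17.7 and 23.4 CPM in EGFPKD, 19.3, 13.98 and 13.9 CPM in Ddx10KD, 31.8, 44.7 and 35.6 CPM in Ddx24KD, 32.4, 28.3 and 21.0 CPM in Ddx27KD, and 32.3, 27.9 and 31.9 CPM in Ddx54KD. Ddx10KD overlapped the control, and all the libraries of Ddx24KD and Ddx54KD lay above it. Ddx10KD differed from the other knockdowns by -1.0 ± 0.15 (edgeR adjusted p = 0.00254), Zscan4b by -1.02 ± 0.19 log2 units and Zscan4d by -0.92 ± 0.17. Dux, the factor that switches this programme on, had own values of 1.29, 1.90, 1.55 and 1.25 and passed on average (1.5 ± 0.32), at 0.149 to 0.442 CPM in the control. The calls of Zscan4f were lost without single libraries: the average (0.104 and 0.0956) without the first or the second control library, and the difference among knockdowns (0.0870 and 0.0811) without the second or the third library of Ddx10KD. The difference of Zscan4d was lost without the first control library, any library of Ddx10KD or Ddx24KD, the second of Ddx27KD or the first of Ddx54KD, at up to 0.197. That of Zscan4b was lost without at least 1 single library in each of the 5 groups, at up to 0.208, and its average call without the first or the second control library (0.0674 and 0.144). The count of 8 was 13 with Ddx10KD left out of the average, 2 with Ddx24KD left out and 4 with Ddx54KD left out, and it was 4 or 2 without the first or the second control library. Zscan4 and Usp17l genes are near-identical copies, so the division of reads among them is uncertain. Zscan4b, Zscan4d and Zscan4f are among the 6 that differed, so the 6 are not independent of each other.

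Genes with differences between Ddx54KD and the other knockdowns included Stx3 and Vim. Stx3, a syntaxin of membrane fusion, stood at 55.5, 56.4 and 53.5 CPM in the control, 63.0, 63.2 and 61.7 CPM in Ddx54KD and 71.7 CPM or more in all 9 other knockdown libraries, a difference of -0.36 ± 0.04 from the other knockdowns (edgeR adjusted p = 0.000610). Vim, the intermediate filament vimentin, stood at 253, 274 and 274 CPM in the control, 223, 249.0 and 231 CPM in Ddx54KD and between 166 and 205 CPM in the others. Ddx54KD thus lay between the control and the other knockdowns in both genes. Tead4, a partner of YAP, and Vill, a villin-like actin protein, fell by less in Ddx54KD, by 0.51 ± 0.09 and 0.43 ± 0.07, and Cpne1, a calcium-dependent membrane protein, rose by less (-0.39 ± 0.06). Ddx10KD departed the other way in Tead4 (-0.55 ± 0.10), Vill (-0.36 ± 0.07), Cpne1 (0.31 ± 0.06) and Stx3 (0.20 ± 0.04), with edgeR adjusted p of 0.00911, 0.0211, 0.0143 and 0.0215. The call of Vim was lost without the second or the third library of Ddx54KD (edgeR adjusted p of 0.106 and 0.0593). Those of Vill, Tead4 and Cpne1 were lost without the second or the third of Ddx10KD or the second of Ddx54KD, at up to 0.0870, those of Vill and Cpne1 also without the third of Ddx54KD, and that of Vill also without the first (0.0717). Gprc5a, an orphan receptor, differed in direction: Ddx54KD stood at 10.2, 10.4 and 9.66 CPM, the control at 7.89, 8.55 and 7.62 CPM and Ddx10KD at 5.66, 5.50 and 5.64 CPM. Nrcam, a neuronal adhesion protein, and Raet1c were named after their values were seen. Without the replicate block they were the only genes with an average change of 2-fold or more that differed among knockdowns. With the block 95 of the 663 genes changed by as much did. Nrcam changed by 2.26, 2.48, 2.46 and 1.36 in Ddx10KD, Ddx24KD, Ddx27KD and Ddx54KD.

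Raet1c and Raet1a, ligands that mark stressed cells for natural killer cells, were graded across the groups. Raet1c stood at 3.07, 3.85 and 2.28 CPM in the control, 8.96, 11.4 and 7.71 CPM in Ddx10KD, 5.91, 5.15 and 7.20 CPM in Ddx24KD, 6.72, 6.59 and 6.06 CPM in Ddx27KD, and 3.63, 5.28 and 4.19 CPM in Ddx54KD. Ddx10KD lay above all other libraries, and Ddx54KD overlapped both the control and Ddx24KD. Raet1a was higher in Ddx10KD than in the other knockdowns by 0.70 ± 0.12 log2 units and lower in Ddx54KD by -0.69 ± 0.13. These genes are close paralogs, and their separate values are uncertain. Raver1-fdx1l, a readthrough model whose reads are shared with its parent genes, was at 7.73, 9.74 and 8.91 CPM in Ddx24KD, at 6.51, 8.55 and 7.36 CPM in the control and between 3.06 and 5.09 CPM in the other knockdown libraries. Tmem181a, Rnf166 and Ccdc112 were not called on average (Ccdc112 was with the block, at an edgeR adjusted p of 0.0306) but were higher in Ddx10KD than in the other knockdowns, by 0.68 ± 0.11, 0.63 ± 0.10 and 0.53 ± 0.09. Their difference among knockdowns, like those of Raet1a and Raet1c, was lost without any 1 library of Ddx10KD, at edgeR adjusted p of up to 0.233. Those of Raet1c, Rnf166 and Ccdc112 were also lost without single libraries of each of the other 4 groups, and that of Raet1a without the second or the third of Ddx54KD.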

How the data were processed

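Per the submitters' processing notes, gene values were made with RSEM on mm10; its version, aligner, annotation and strand setting are not stated in the labels or files. The authors deposited for each library, per the file headers, expected counts (estimated reads per gene, not scaled for depth) and TPM. After rounding of expected counts to whole numbers, filterByExpr removed genes with low counts, TMM scaled the libraries, and 1 fit over 5 groups of 3 replicates was made with edgeR's quasi-likelihood test, with Benjamini-Hochberg adjustment over the 14335 genes; called means an adjusted p under 0.05. The contrasts were the mean of the 4 knockdowns minus EGFPKD, equality of the 4 knockdowns, each knockdown against the mean of the other 3, and each against EGFPKD. Levels are TMM-scaled CPM, and deposited TPM served for markers and naming. The tools were edgeR 4.0.16 with DESeq2 1.42.0 and limma 3.58.1 as alternatives, in R 4.3.3. The code was tested on simulated data. The series describes the replicates as biological.

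The members and the 32 gene lists were chosen with earlier results of these data known, so the direction of a list is no independent evidence. Named genes were the targets, the 12 each way with the largest average change among called genes at a mean of at least 5 TPM in a group and no overlap of the 12 and 3 libraries, up to 4 members of each list with the smallest p, the 10 least even and 8 most even genes, up to 3 each way per knockdown against the others, 5 genes that differ among knockdowns but not on average, and 5 stem cell genes. Predicted models were named only as list members or where stated.

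Replicate numbers were checked for pairing: all 30 correlations between libraries of 1 number in different groups, after removal of group means, were 0.106 to 0.335, and 15 of 15 libraries were most like their own number. A second fit of each test therefore took the replicate number as a blocking factor. The deposited tables of the authors' own comparisons were not used here. Alternatives are given in the closing section.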

Additional observations from a re-analysis of the deposited data

Results flagged for a closer look

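Of the 160 named genes, 27 stood out because their change against EGFPKD differed among the 4 knockdowns in edgeR's test of equal knockdown means. Each value in brackets is the range of the 4 group log2 changes, from the lowest to the highest group. The 4 targets had the widest ranges, Ddx10 (2.26), Ddx27 (2.14), Ddx54 (1.73) and Ddx24 (1.49), each set by the group that targets it. Genes lower in Ddx10KD than in the other knockdowns were Eif4b (0.523), Rnf10 (0.604), Map1a (0.497) and Cox7a2l (0.66). Genes higher in Ddx10KD were Sdf4 (0.376), Foxk2 (0.614), Akr1a1 (0.321), Tmem181a (0.857), Rnf166 (0.722) and Ccdc112 (0.684). Of the 2-cell-like list Zscan4b (1.34), Zscan4d (1.21), Zscan4f (1.25) and Gm8300 (0.973) were lower in Ddx10KD. Ddx54KD departed from the others for Stx3 (0.421), Vim (0.417), Vill (0.596), Tead4 (0.79), Cpne1 (0.522) and Gprc5a (0.85), and in all of these except Vim Ddx10KD also departed, in the other direction. The 3 remaining genes, Raet1a (1.05), Raet1c (1.1) and Raver1-fdx1l (1.17), are close paralogs or a readthrough model, and their values are uncertain. No library of a group was tested as an outlier, since groups of 3 are too small for that.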

How the results depend on the processing

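The average response kept its size under most alternatives and the comparisons among knockdowns did not. Its 5549 genes were 5368 without a count filter, 4137 at 10 CPM in 3 libraries, 5502 with DESeq2, 3820 at an adjusted p under 0.01 and 663 with a 2-fold minimum. Leaving out all libraries of replicate number 1 gave 3699, and leaving out 1 library at a time gave 4337 to 5998, lowest without the first control library. Of 148 named genes called on average 127 were called, at an adjusted p under 0.05, in every alternative fit that held them. Some, such as Nupr1 and Chac1, were held by 29 of the 30 fits. No called average change reversed.

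Differences among knockdowns counted 71 genes, 368 with DESeq2, 26 at an adjusted p under 0.01, 22 to 145 without 1 library, and 9, 15 and 7 without replicate number 1, 2 and 3. Ddx10KD against the others counted 224, then 452, 56, 35 to 241, and 14, 27 and 25 in the same order. Ddx54KD counted 25, then 141, 8 and 6 to 129, 3 without number 1, 5 without number 3, and 44 without a count filter. Ddx24KD counted 10, then 21, 6, 6 to 11, and 6, 3 and 4, and 5 at 10 CPM. Ddx27KD counted 5, 12 with DESeq2, 4 to 6 without 1 library, and 2 and 1 without number 1 and 2. The cause was not tested, and the fits without a library or a replicate number also held fewer libraries.

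With the replicate block, which follows the pairing of the replicate numbers, the counts were 7316 on average, 1603 among knockdowns, 1488 for Ddx10KD, 59 for Ddx24KD, 64 for Ddx27KD and 755 for Ddx54KD. The block raised every one of these counts, and in edgeR it also passed the average changes of Rnf10 (adjusted p of 0.0657, and 0.0196 with the block) and Zscan4a (0.0544 and 0.0255). The comparison rests on 3 control libraries and 1 control siRNA, and depth differed little between libraries. Whether the number of cultures or the depth limited precision was not tested.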
